A study of Mus musculus with 6 samples.

Results

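Markers of T, B and natural killer (NK) lymphocytes were followed in bulk RNA from mouse dorsal root ganglia, which hold the cell bodies of sensory neurons beside the spinal cord. The 9 genes, Cd3d, Cd3e, Cd3g, Cd4, Cd8a, Cd2, Cd79a, Nkg7 and Ptprc, were taken by symbol as classical surface or granule markers, and all 9 stand among the 22087 genes of the deposited table. Control and conditional knockout mice were compared at 3 months of age, with 3 libraries each. Control mice were Kif2a fl/fl without Cre, and conditional knockout (cKO) mice were Kif2a fl/fl; Avil Cre, so both carry loxP-flanked alleles of the kinesin gene Kif2a. Cre is driven from the advillin gene, which among ganglion cells is active mainly in sensory neurons. Because the control carries no Cre, effects of Cre itself and of the deletion cannot be told apart. The labels give neither sex nor whether each library came from a separate animal or from pooled animals. The p-values thus refer to the spread among these 6 libraries, part of which may be technical.

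Lymphocytes carry antigen receptors whose signalling chains mark the cell lineage. The T cell receptor signals through the CD3 chains encoded by Cd3d, Cd3e and Cd3g, and it works with the coreceptors CD4 or CD8. The B cell receptor signals through the chains encoded by Cd79a and Cd79b. Nkg7 encodes a granule protein of NK cells and cytotoxic T cells, Cd2 an adhesion receptor of T and NK cells that mouse B cells also carry, and Ptprc the phosphatase CD45 found on leukocytes of all kinds, macrophages included. In a bulk sample, fewer cells of a type and less RNA per cell cannot be told apart.

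The libraries held between 21683083 and 31626625 counts. Levels are given as CPM, counts per 1000000 counts of the library. Correlations of log2 CPM between libraries of a group lay between 0.965 and 0.988, and every pair of a group differed by far more than sampling noise, with a mean chi-square per gene of at least 14.2. The targeted gene Kif2a was at 86.4, 80.4 and 90.0 CPM in the control libraries and at 69.8, 66.5 and 67.4 CPM in the cKO libraries. Its groups did not overlap, with a log2 fold change of -0.33 ± 0.10 (SE), an unadjusted edgeR p of 0.0092 and an edgeR adjusted p of 1.0. Markers of sensory neurons were abundant in each of the 6 libraries: Nefh, a neurofilament chain, averaged 2347 ± 485 CPM over control and 2354 ± 557 CPM over cKO libraries (SD, n = 3). The labelled tissue was therefore present in all 6 libraries, and the lymphocyte markers were read as a minor share of its RNA.

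No lymphocyte marker differed between genotypes beyond the spread between libraries. Of the 9 genes, 7 had enough counts to be tested by edgeR's quasi-likelihood test, and 0 of 7 passed at a Benjamini-Hochberg adjusted p under 0.05, against 0.0225% of all 17759 genes tested. At an unadjusted p under 0.05 the count was also 0 of 7, against 4.67% of all genes, and DESeq2 called 0 of the 6 markers to which it gave an adjusted p, against 0.17% of genes. When single libraries were left out, the count at the adjusted threshold stayed at 0. The groups overlapped for each of the 9 in CPM, where 8.66% of all genes tested did not overlap. The fitted change was upward for 6 of 7 and downward for Nkg7, and the median over the 7 was a log2 fold change of 0.48 (cKO minus control) beside 0.0059 for all genes, of which 51.6% were upward. Leaving out 1 library gave medians from 0.13, without control replicate 1 or cKO replicate 1, and 0.16, without control replicate 3, up to 0.90, without cKO replicate 2. The spread within a genotype was larger for the markers than for most genes. The SD of log2 CPM within groups had a median of 0.87 over the 7 genes tested and 0.22 over all genes tested. It was not particular to the markers. Among the gene lists described below, this median was 1 for B cell, 0.97 for red cell and 0.78 for leukocyte genes. It was 0.61 for macrophage, 0.42 for T cell and 0.23 for sensory neuron genes. Low counts add to the spread, since counting noise alone would give an SD of 0.419 for Cd3g and 0.238 for Nkg7.

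**Figure D1:**
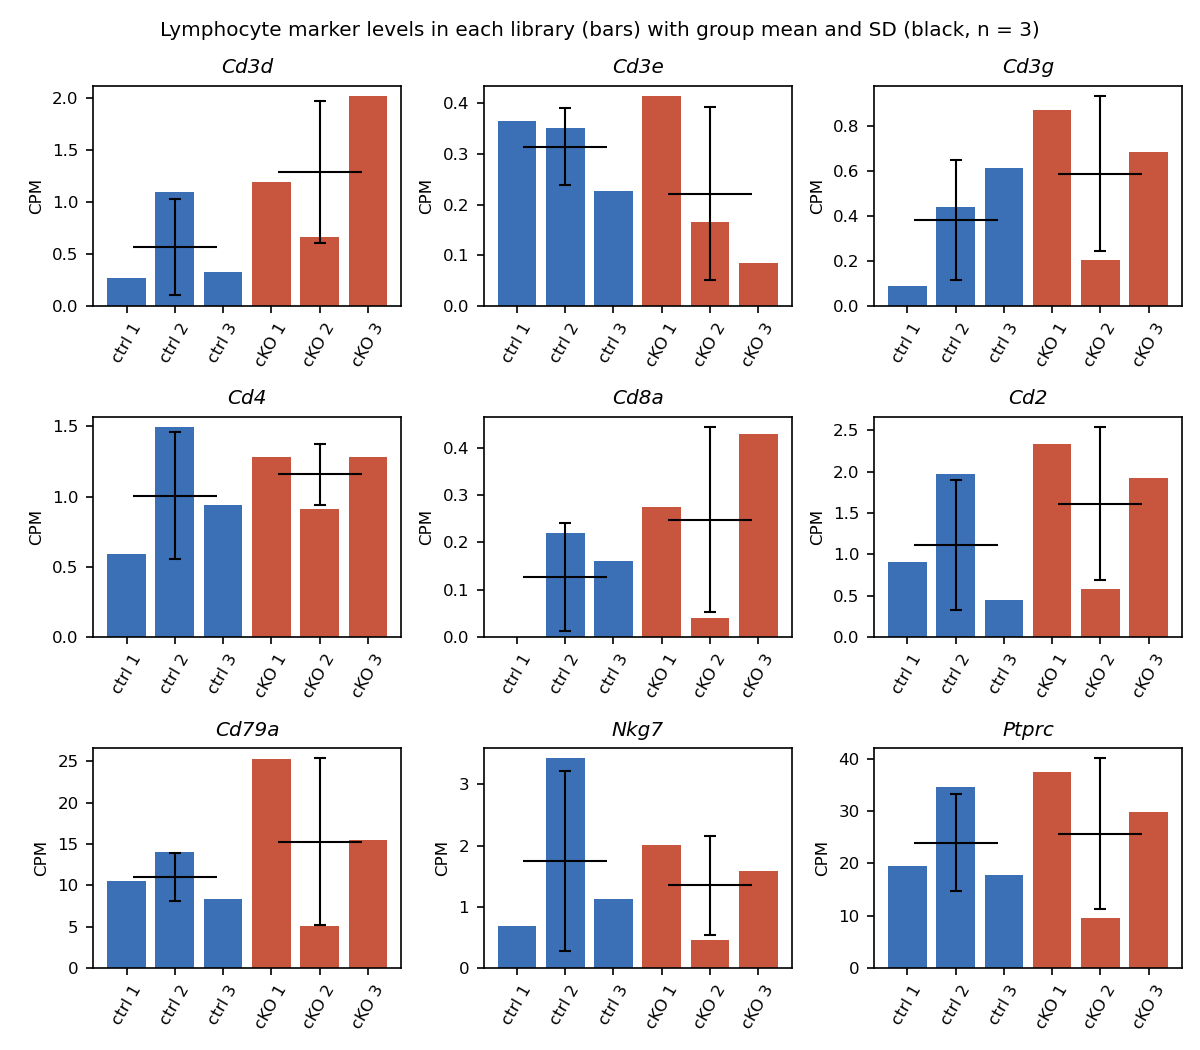
CPM of each of the 9 lymphocyte markers (vertical axis, from 0) in the 6 libraries (ctrl, control; cKO, cKO), with black lines for the group mean and SD (n = 3). The groups overlap in every panel, and the highest and the lowest library differ from gene to gene.

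Among the receptor chains of T cells, Cd3d had the largest fold change and Cd3e went the other way. Cd3d, the CD3 delta chain (chromosome 9, 44981786 to 44987339, GRCm38), was at 0.274, 1.10 and 0.323 CPM in the control libraries (replicates 1, 2 and 3) and at 1.19, 0.662 and 2.01 CPM in the cKO libraries in the same order of numbers. Control replicate 2 lay above cKO replicate 2, so the groups overlapped although the means, 0.565 ± 0.462 and 1.29 ± 0.68 CPM (SD, n = 3), differed. The log2 fold change was 1.20 ± 0.60 (SE), with a 95% interval from -0.17 to 2.58, edgeR p-values of 0.0791 before and 1.0 after adjustment. It was 2.09 without control replicate 2, with edgeR p-values of 0.00555 before and 1.0 after adjustment, and 0.73 without cKO replicate 3. In the authors' deposited table the log2 fold change of Cd3d is 1.20 with a false discovery rate of 0.322, and 0 of the 9 genes are marked there as changed.

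Cd3g, the CD3 gamma chain (chromosome 9, 44969572 to 44980431), had 2, 10 and 19 counts in control and 19, 5 and 16 in the cKO. Conditional knockout replicate 1 and control replicate 3 held the same number of reads, and the lowest library was a control. Its log2 fold change was 0.56 ± 0.66 (SE; edgeR adjusted p 1.0), and it was 0.13 without control replicate 1 and 1.12 without control replicate 3. Cd3e, the CD3 epsilon chain (chromosome 9, 44998740 to 45009627), had 8, 8 and 7 counts in control and 9, 4 and 2 in the cKO, too few for the test. Over each group these are 23 and 15 counts, a ratio of 0.711 with an exact 95% interval, for counting error alone, from 0.345 to 1.42. Conditional knockout replicate 3 thus had the highest Cd3d of all libraries, 47 counts, and the lowest Cd3e. Cd3e overlaps the annotated antisense gene Gm48719 and the same-strand gene Gm48720, and no source used here says whether counting used strand.

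The 3 CD3 genes lie beside each other, with 1355 bases between the starts of Cd3g and Cd3d, which are read in opposite directions. Promoters of 7 of the 9 markers were matched by symbol in RefSeq (GRCm38.p6); Cd2 and Cd4 were not. They were searched on both strands for AGGAAGT, a motif bound by ETS transcription factors, which act widely in blood cells. In the 250 bases before the start, 7.69% of 32851 RefSeq promoters hold it, and 4 of the 7 matched genes do: Cd3d, Cd3e, Cd79a and Ptprc. The units differ, since the share counts promoter entries. The 7 genes have 8 entries, because Ptprc has more than 1. The match describes letters only and says nothing of binding. Shown are the gene with the largest fold change, its neighbour that went the other way, and the marker with the highest level per kilobase of transcript, each 5′ to 3′ on the strand of the gene, with the motif (or its reverse complement ACTTCCT) in capitals.
Cd3d promoter, chr9:44981536-44981785, plus strand: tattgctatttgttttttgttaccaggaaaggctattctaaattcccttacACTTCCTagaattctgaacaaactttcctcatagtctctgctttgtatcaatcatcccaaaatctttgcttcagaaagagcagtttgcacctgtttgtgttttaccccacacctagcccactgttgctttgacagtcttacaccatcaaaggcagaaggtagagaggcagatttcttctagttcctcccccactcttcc
Cd3e promoter, chr9:45009612-45009861, minus strand: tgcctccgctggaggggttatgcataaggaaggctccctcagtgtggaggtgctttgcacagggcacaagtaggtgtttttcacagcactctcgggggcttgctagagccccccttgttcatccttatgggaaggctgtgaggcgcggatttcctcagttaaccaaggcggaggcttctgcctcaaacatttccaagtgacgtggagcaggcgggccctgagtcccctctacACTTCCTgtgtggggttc
Cd79a promoter, chr7:24897247-24897496, plus strand: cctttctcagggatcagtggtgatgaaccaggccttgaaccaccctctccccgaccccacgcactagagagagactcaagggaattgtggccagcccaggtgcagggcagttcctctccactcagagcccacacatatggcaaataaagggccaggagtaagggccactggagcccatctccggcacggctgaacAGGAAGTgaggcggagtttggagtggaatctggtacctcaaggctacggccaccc
The first base of the motif stands 199 bases before the RefSeq start in Cd3d, 18 bases before it in Cd3e and 55 bases before it in Cd79a. For Cd79a the GENCODE start lies 116 bases ahead of the RefSeq start, so the motif falls inside the GENCODE gene. For Cd3e it lies 16 bases ahead, so the motif spans the GENCODE start.

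The coreceptors and Cd2 were low and unequal between libraries. Cd4, the coreceptor of helper T cells that some mouse dendritic cells also carry (chromosome 6, 124864692 to 124888221), was at 0.593, 1.49 and 0.937 CPM in control and at 1.28, 0.91 and 1.28 CPM in the cKO. Both the highest and the lowest library were controls. Its log2 fold change was 0.20 ± 0.38 (SE), with a 95% interval from -0.66 to 1.06 and an edgeR adjusted p of 1.0, and it turned to -0.06 without control replicate 1. Cd8a, the coreceptor of cytotoxic T cells, lies on chromosome 6 (71373427 to 71379173). It had 0, 5 and 5 counts in control and 6, 1 and 10 in the cKO, too few for the main test. The 0 counts in control replicate 1 allow a level of up to 0.137 CPM, counting error only, which is above the level of cKO replicate 2. Summed over groups, Cd8a had 10 and 17 counts, a ratio of 1.85 with an exact counting interval from 0.802 to 4.53, so a difference was not detectable at this depth.

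Cd2 (chromosome 3, 101275899 to 101287939) was at 0.912, 1.98 and 0.452 CPM in control and at 2.34, 0.579 and 1.93 CPM in the cKO. One library of each genotype lay low and the ranges overlapped over most of their length. Its log2 fold change was 0.55 ± 0.63 (SE; edgeR adjusted p 1.0), ranging from 0.16 without control replicate 3 to 1.27 without control replicate 2.

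Cd79a, the marker of B cells, had far more reads than any T cell marker, and its level varied with the library. Cd79a (chromosome 7, 24897381 to 24902197) was at 10.6, 14.0 and 8.34 CPM in control and at 25.3, 5.13 and 15.5 CPM in the cKO. The highest and the lowest of the 6 libraries were both cKO, and the 3 controls lay between cKO replicates 2 and 3. The means were 10.99 ± 2.88 and 15.3 ± 10.1 CPM (SD, n = 3), and the log2 fold change was 0.48 ± 0.54 (SE), with a 95% interval from -0.83 to 1.79 and an edgeR adjusted p of 1.0. Counting error was smaller than this spread: the 810 control and 1037 cKO counts give a ratio of 1.40 with an exact counting interval from 1.27 to 1.53. Within the cKO, replicate 1 stood 4.92 times above replicate 2, with a counting interval from 4.04 to 6.03. Without cKO replicate 1 the log2 fold change turned to -0.08, and without replicate 2 it was 0.90 with edgeR p-values of 0.0132 before and 0.261 after adjustment.

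Nkg7 was the only marker tested whose fitted level was lower in the cKO. It lies on chromosome 7 (43437073 to 43438249) and was at 0.684, 3.42 and 1.13 CPM in control and at 2.02, 0.455 and 1.58 CPM in the cKO. Control replicate 2 was above all other libraries and 5.01 times above control replicate 1 (exact counting interval from 2.86 to 9.37). The log2 fold change was -0.37 ± 0.69 (SE; edgeR adjusted p 1.0), with a 95% interval from -1.98 to 1.25. It turned to 0.55 without control replicate 2 and to 0.06 without cKO replicate 2.

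Ptprc, the marker shared by all leukocytes (chromosome 1, 138062861 to 138175708), was at 19.5, 34.7 and 17.7 CPM in control and at 37.5, 9.64 and 29.8 CPM in the cKO. Conditional knockout replicates 1 and 3 and control replicate 2 were high, and cKO replicate 2 was the lowest. The means, 24.0 ± 9.32 and 25.7 ± 14.4 CPM (SD, n = 3), were close, with a log2 fold change of 0.10 ± 0.53 (SE; edgeR adjusted p 1.0) and a 95% interval from -1.19 to 1.39. The sign of so small a value depended on single libraries: leaving out control replicate 1 gave -0.03, control replicate 3 gave -0.07, cKO replicate 1 gave -0.27 and cKO replicate 3 gave -0.02. Leaving out control replicate 2 gave 0.47, and leaving out cKO replicate 2 gave 0.50. Its within-group SD of log2 CPM, 0.825, was larger than that of 99.1% of the 10275 genes that averaged 10 CPM or more, and for Cd79a, with an SD of 0.867, that share was 99.3%. Counting noise alone would give an SD of 0.0596 for Ptprc and 0.0822 for Cd79a. For the 7 tested markers, the exact two-sided permutation p lay between 0.2 for Cd3d and 0.9 for Ptprc, where 3 against 3 libraries cannot give less than 0.1.

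**Figure D2:**
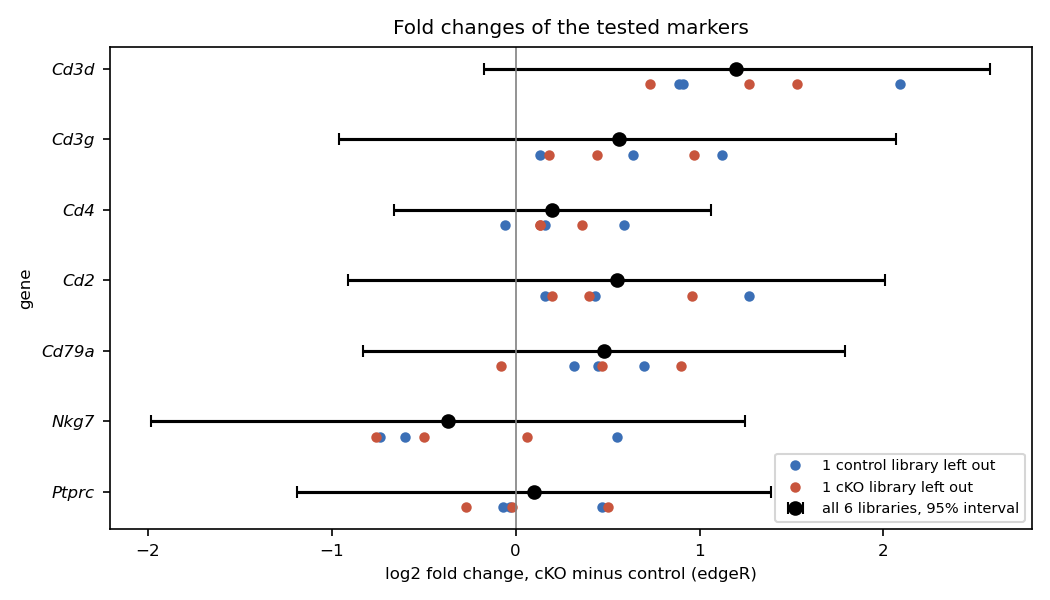
Log2 fold change (horizontal axis, cKO minus control) of the 7 tested markers with its 95% interval (black), and the same value with 1 control library (blue) or 1 cKO library (red) left out. Every interval includes 0, and the points of Cd4, Cd79a, Nkg7 and Ptprc fall on both sides of it.

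Levels of different genes were compared per kilobase of the principal GENCODE transcript. Averaged over the 6 libraries, Cd79a stood highest at 9.02 CPM per kilobase, followed by Ptprc at 5.28, Nkg7 at 1.76 and Cd2 at 1.18 CPM per kilobase. The T cell genes followed at 0.573 for Cd3d, 0.474 for Cd3g, 0.349 for Cd4, 0.183 for Cd3e and 0.060 CPM per kilobase for Cd8a. Cd79a exceeded Ptprc in 6 of 6 libraries, as Ptprc did Nkg7 and Cd2 did Cd3d, although the ranges over libraries of each of these pairs overlapped. Of the other neighbours, Nkg7 exceeded Cd2, Cd4 exceeded Cd3e and Cd3e exceeded Cd8a in 5 of 6 libraries each, Cd3d exceeded Cd3g in 4 of 6 and Cd3g exceeded Cd4 in 3 of 6, and their ranges overlapped too. The order of Ptprc depends on the length used, since over all annotated exons, 18313 bases in place of 4702, it was at 1.35 CPM per kilobase and Nkg7 at 1.69.

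**Figure D3:**
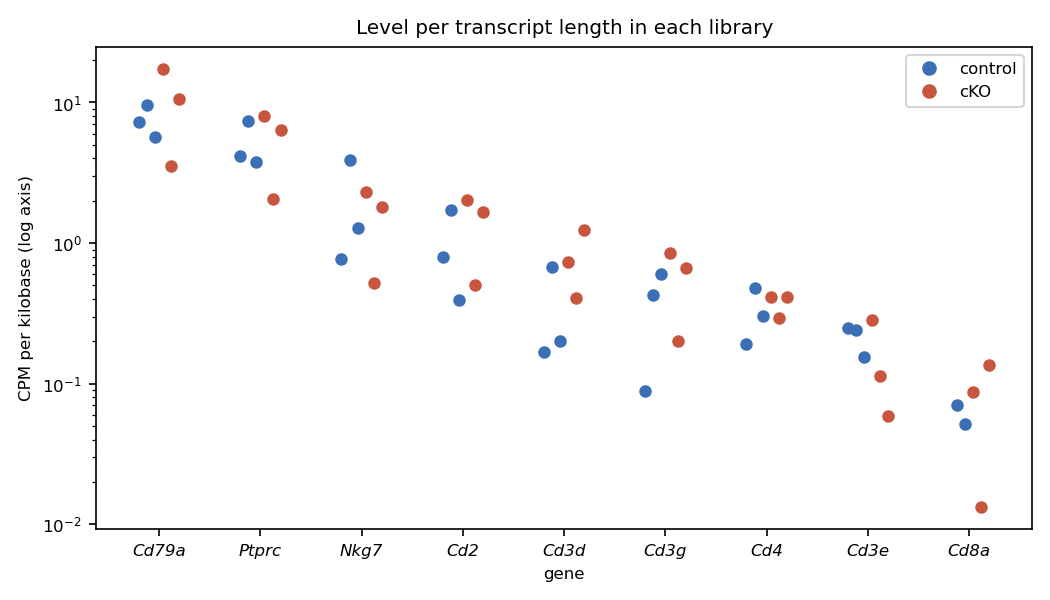
CPM per kilobase of transcript (vertical log axis) of the 9 markers in each control (blue) and cKO (red) library, ordered by their mean. Cd79a and Ptprc lie above the T cell genes in each library; the 0 of Cd8a in control replicate 1 cannot be drawn on a log axis.

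Dividing each marker by Ptprc of the same library narrowed the range over libraries for 5 genes and widened it for Cd3e, from 4.82-fold to 6.53-fold, and Cd4, from 2.52-fold to 3.10-fold. Per kilobase, the ratio of Cd79a to Ptprc was 1.75, 1.31 and 1.52 in control and 2.17, 1.72 and 1.68 in the cKO. It differed 1.66-fold between its highest and lowest library, where Cd79a itself differed 4.92-fold, and its groups overlapped (exact two-sided permutation p 0.3). The ratio of Cd2 to Ptprc was 0.191, 0.232 and 0.104 in control and 0.254, 0.245 and 0.263 in the cKO, so the groups did not overlap (exact two-sided permutation p 0.1, the smallest possible). For Cd3d the ratio was 0.0409, 0.092 and 0.053 in control and 0.0924, 0.2 and 0.196 in the cKO, with the same exact p of 0.1. Its groups were separated only by the gap between control replicate 2 and cKO replicate 1, which had 25 Cd3d reads to 790 Ptprc reads and 26 to 818. The other 5 ratios (Cd3e, Cd3g, Cd4, Cd8a and Nkg7) overlapped, with exact permutation p from 0.4 to 0.7. Over 17729 genes compared, the ratio to Ptprc did not overlap between groups for 0.818%, and for 0.519% it was also higher in the cKO, but most genes do not follow Ptprc and their ratio carries its spread.

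**Figure D4:**
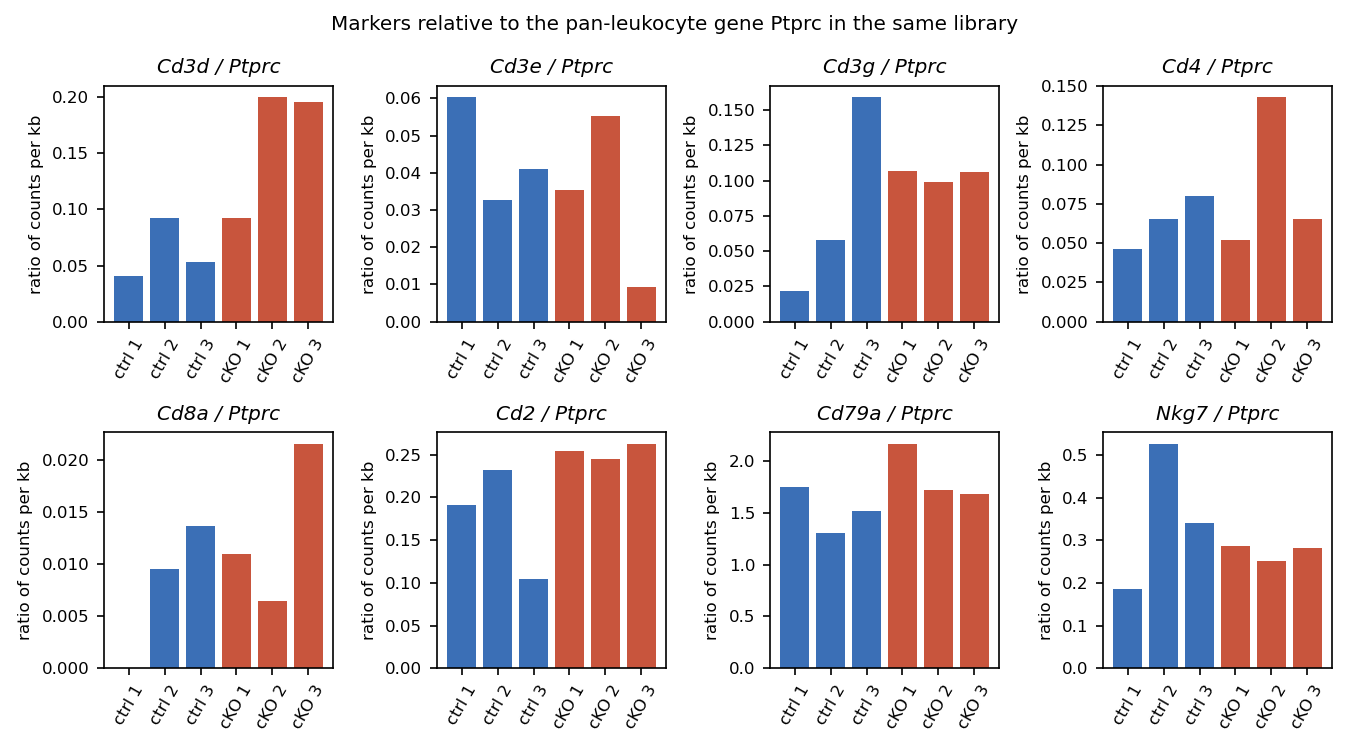
Ratio of each marker to Ptprc, both per kilobase (vertical axis, from 0), in the control (blue) and cKO (red) libraries. Cd2 and Cd3d are the 2 markers whose groups do not overlap, and Cd3d by a gap between 0.092 and 0.0924 only.

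Other T cell genes gave the same picture of low levels without a called difference. Of 32 genes of T cell receptor signalling and T cell identity 21 could be tested, and 0 passed in either direction; 13 were higher and 8 lower in the cKO, and their median log2 fold change was 0.15. The median was 0.021 without cKO replicate 1, 0.054 without cKO replicate 3, 0.25 without control replicate 2 and 0.36 without cKO replicate 2. The most abundant were Lcp2, an adaptor of the receptor that myeloid cells also use, and the transcription factor Bcl11b. Bcl11b, which neurons also express, averaged 7.80 ± 0.335 CPM over control and 5.51 ± 0.623 CPM over cKO libraries without overlap (SD, n = 3; log2 fold change -0.50 ± 0.18; edgeR adjusted p 1.0). Cd28, the costimulatory receptor of T cells, was the other tested gene of the list whose groups did not overlap, in the opposite direction; it was picked after its values were seen. It was at 0.319, 0.132 and 0.388 CPM in control and at 0.504, 0.455 and 0.813 CPM in the cKO (log2 fold change 1.04 ± 0.48; edgeR p-values of 0.0587 before and 1.0 after adjustment). Trac, the constant region of the T cell receptor alpha chain, which was picked after its values were seen, was at 0.365, 0.834 and 0.259 CPM in control and at 1.01, 0.331 and 0.514 CPM in the cKO. Trac was highest in cKO replicate 1 and control replicate 2.

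Genes of B cells moved with Cd79a from library to library. All 16 listed B cell genes other than immunoglobulins were tested, and 0 passed; 14 were higher and 2 lower, and their median log2 fold change was 0.44. That median turned to -0.16 without cKO replicate 1, was 0.27 without control replicate 3, and reached 0.69 without control replicate 2 and 0.89 without cKO replicate 2. Conditional knockout replicate 1 was the highest library for 14 of 16 and cKO replicate 2 the lowest for 14 of 16, where over all genes tested these libraries were highest for 23.8% and lowest for 24.6%. Cd79b, the partner of Cd79a, was at 6.66, 7.55 and 3.88 CPM in control and at 18.4, 2.81 and 11.04 CPM in the cKO (log2 fold change 0.84 ± 0.64, edgeR adjusted p 1.0). Ms4a1, which encodes CD20 of mature B cells, was at 4.24, 6.72 and 2.36 CPM in control and at 19.8, 1.78 and 10.9 CPM in the cKO. In both genes cKO replicates 1 and 3 were above all controls and replicate 2 below all controls. Cd37, a tetraspanin, had a log2 fold change of 0.36 ± 0.70 (SE; edgeR adjusted p 1.0).

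The ratio to Cd79a had a narrower range for its partner Cd79b than for Ms4a1. Per kilobase, Cd79b was between 0.567 and 0.887 of Cd79a over the 6 libraries, a 1.56-fold range. Ms4a1 was at 0.19, 0.227 and 0.134 of Cd79a in control and at 0.372, 0.164 and 0.332 of it in the cKO, a 2.78-fold range with overlapping groups (exact two-sided permutation p 0.3). Both ratios were chosen after the values were seen.

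NK and cytotoxic genes were the lowest of the lymphocyte lists. Of 20 genes 11 could be tested and 0 passed, with 8 higher and 3 lower, at a median of 0.28 on the log2 scale. The median was 0.034 without cKO replicate 1, 0.51 and 0.52 when control replicate 3 or 2 was left out, and 0.64 without cKO replicate 2. The most abundant was Cst7, an inhibitor of granule proteases, with means of 1.17 ± 0.738 CPM for control and 0.814 ± 0.519 CPM for cKO libraries (SD, n = 3; edgeR adjusted p 1.0). The granule protease Gzma was at 0.547, 0.439 and 0.582 CPM in control and at 1.83, 0.29 and 1.498 CPM in the cKO (log2 fold change 1.19 ± 0.59, edgeR adjusted p 1.0). The chemokine Ccl5 and the receptor Klrk1 had log2 fold changes of 0.62 ± 0.56 and 0.19 ± 0.61 (SE; edgeR adjusted p 1.0 for each). As in the B cell list, cKO replicate 2 was below each control for these 4 genes, and it was the lowest library for 7 of the 11 tested.

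Chemokines that attract lymphocytes, with their receptors and adhesion molecules, included 15 tested genes of 18. Of these, 13 were higher and 2 lower in the cKO, with a median log2 fold change of 0.51. That median was 0.075 without cKO replicate 1, 0.22 without cKO replicate 3 and 0.89 without cKO replicate 2. None of the 15 passed by edgeR, 2 had an unadjusted p under 0.05, and DESeq2 called 1. That gene was Cxcl9, an interferon-induced ligand of CXCR3, a chemokine receptor carried by activated T cells, at 0.319, 0.658 and 0.129 CPM in control and at 3.53, 0.703 and 3.47 CPM in the cKO. The groups did not overlap, but cKO replicate 2 lay just above control replicate 2. Its log2 fold change was 2.83 ± 0.74 (SE), with edgeR p-values of 0.00529 before and 0.946 after adjustment and a DESeq2 adjusted p of 0.0221. Cxcl10, another ligand of CXCR3, was at 1.03 ± 0.34 on the log2 scale (unadjusted edgeR p 0.0145, adjusted p 1.0). Both were picked for their p-values. Of the 4 most abundant genes, Cxcr4, Vcam1 and Ccr2 had log2 fold changes between 0.02 and 0.14, and Cxcl12 was at -0.55 ± 0.58 with 124 CPM in control replicate 2 (edgeR adjusted p 1.0 for each).

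Markers of other blood cells moved with the lymphocyte genes across libraries, and their part in the lymphocyte values was not tested. Summed over the list, all 16 macrophage markers were measured and reached 387 to 609 CPM in control and 279 to 805 CPM in the cKO. The 12 neutrophil and mast cell markers, all measured, reached 293 to 813 CPM in control and 186 to 695 CPM in the cKO. Red blood cell genes, all 5 measured, were at 1255 to 2759 CPM in control and 609 to 3184 CPM in the cKO. Conditional knockout replicate 2 was the lowest library for 15 of 16 macrophage genes, 12 of 12 neutrophil and mast cell genes and 4 of 5 red cell genes, and for 18 of 19 tested genes shared by leukocytes. None of these genes passed by edgeR, and none was at 0 in any library. By level the first macrophage gene was Lyz2 at 269 ± 81.5 and 314 ± 154 CPM, the first neutrophil gene was S100a9 at 266 ± 157 and 248 ± 141 CPM, and the first red cell gene was the globin Hbb-bs at 1064 ± 396 and 1037 ± 714 CPM in control and cKO (SD, n = 3).

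Precursor markers of bone marrow and thymus shared the low library, with cKO replicate 2 lowest for 8 of 9 tested genes, while their highest sum was in control replicate 2. Of 11 listed genes 10 were measured, none at 0 in all libraries, and their sum was 28.0, 166 and 49.0 CPM in control and 44.5, 17.6 and 71.1 CPM in the cKO. Control replicate 2 stood apart, with 70.1 CPM of the myeloid precursor enzyme Mpo against 11.2 and 18.3 CPM in the other controls, and with 47.0 CPM of the protease Elane against 4.70 and 10.5 CPM. That library was also the highest for Nkg7. In cKO replicate 1, the highest for B cell genes, Mpo was at 17.2 CPM. Rag1, the recombinase of precursor lymphocytes (picked after its values were seen), was at 2.96, 2.33 and 3.49 CPM in control and at 3.12, 1.37 and 4.49 CPM in the cKO, so its order differed from that of Mpo. The median log2 fold change of the list was -0.84, and 0.11 without control replicate 2. Genes of dividing cells were lowest in cKO replicate 2 for 8 of 8 genes, led by the proliferation marker Mki67 at 34.5, 66.7 and 28.0 CPM in control and 46.7, 19.0 and 57.6 CPM in the cKO.

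Dendritic cell markers had a nearly even sum over the libraries. Of 8 genes 7 were tested and 0 passed, at a median of 0.011 on the log2 scale, which without 1 library lay between -0.26 (without cKO replicate 1) and 0.015. Their sum lay between 42.6 and 47.0 CPM in control and between 43.5 and 48.9 CPM in the cKO. Flt3 held the largest part of that sum, with means of 22.7 ± 4.53 (control) and 24.2 ± 7.15 CPM (cKO; SD, n = 3). Zbtb46 came next and varied little, between 10.8 and 13.1 CPM over the 6 libraries. Flt3 was lowest in cKO replicate 1, whereas 5 of the 7 tested genes were lowest in cKO replicate 2. The sensory neuron markers had the reverse order within the cKO: cKO replicate 1 was the lowest library for 8 of 9, and their sum there was 6566 CPM against 9935 in replicate 2 and 7992 in replicate 3. In control the same sum was 9098, 8563 and 9475 CPM. Over all 12 lists, 147 tested genes gave 0 calls by edgeR, and the groups did not overlap for 6 of them, or 4.08%, below the 8.66% of all genes.

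**Figure D5:**
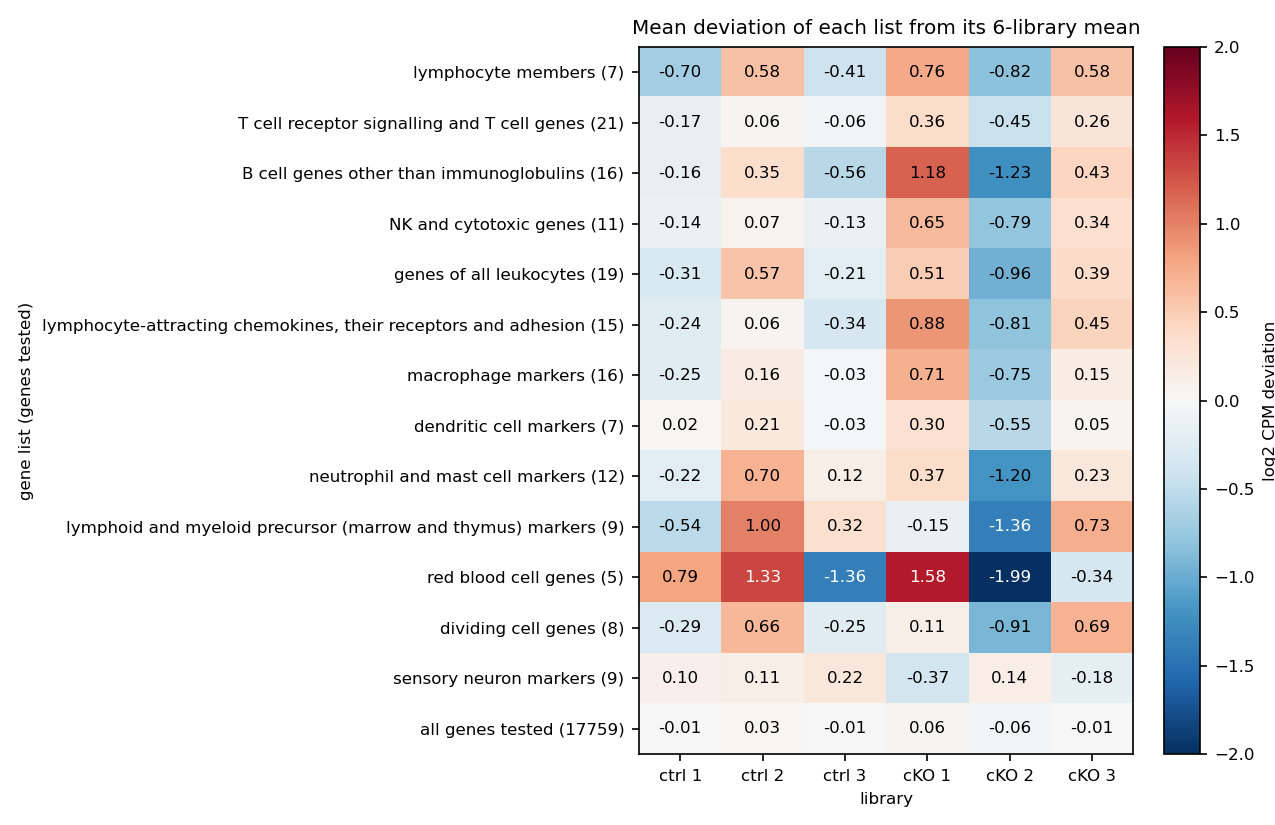
Mean deviation in log2 CPM from the mean over all 6 libraries (colour and printed value) of the 7 tested lymphocyte markers, of 12 gene lists and of all genes tested, in each library. Conditional knockout replicate 2 is negative in every blood cell list, down to -1.99 for red cells, and 0.14 for sensory neuron markers, while over all genes no library departs by more than 0.06. The red cell list has 5 genes. It includes Hba-a2, at 0.538 CPM in that library and up to 239.6 CPM in others, whose values are uncertain beside its near-identical copy Hba-a1.

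The genes closest in pattern to the mean of the 7 tested markers were sought among 15518 genes with a mean of at least 1 CPM. The 5 closest were Mir6236, Eif3s6-ps2, Lat2, Ly6c2 and Lgals3, with Pearson r between 0.990 and 0.995 over 6 libraries that share depth and tissue, given as a description. Lat2 is an adaptor of B and myeloid cells, Ly6c2 a surface protein of monocytes, and Lgals3 a lectin abundant in macrophages. Ly6c2 was at 2.78, 12.9 and 3.13 CPM in control and at 13.2, 2.32 and 12.5 CPM in the cKO, so that 1 control and 2 cKO libraries were high. Lat2 was at 1.14, 2.11 and 1.36 CPM in control and at 2.52, 1.08 and 2.05 CPM in the cKO.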

How the data were processed

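Raw counts per gene symbol were deposited by the authors as whole reads, per the file headers. The tools cutadapt, STAR and DESeq2 and the build mm10 appear in the notes on processing by the submitters, without versions; the counting program and use of strand are not stated. The deposited normalized signal (the count divided by 1 factor per library, as its values show), regularized log2 values, log2 fold changes, p-values and false discovery rates were made by the authors and entered no test.

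Counts were fitted with edgeR 4.0.16 in R 4.3.3 (filterByExpr with minimum count 10, TMM scaling, robust quasi-likelihood F test, no covariate), which tested 17759 genes. CPM uses TMM-scaled totals, log2 CPM a prior count of 2. SE and 95% intervals were derived from the F statistic. Exact counting intervals are Clopper-Pearson, and the limit for 0 counts is 3 counts. Scripts were tested on counts simulated with the dispersions of these data. There edgeR recovered 11.9% of genes changed 1.5-fold, 56.7% of those changed 2-fold and 87.9% of those changed 4-fold. Of its 124 calls 20 were false, and of 173 DESeq2 calls 49 were false. Small changes could thus be missed, and single calls of either tool are uncertain. The changed genes were drawn from all genes tested, whose median within-group SD of log2 CPM was 0.22. For the 7 tested markers it was 0.87, so these recovery shares do not carry over to them, and larger changes could be missed too. DESeq2 1.42.0, other scalings, no filter, a replicate block, each library left out and ratios to Ptprc were alternatives.

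Groups and replicate numbers come from the sample titles. The members and the 12 gene lists were chosen with earlier results of these data known, and no test was made over a list. All 9 markers are named, with Kif2a, up to 4 genes per list (those that pass, then the most abundant) and the 5 most similar genes; others are said to be picked. Some genes that this rule names are not reported here. Positions and transcript lengths are from GENCODE M21 (GRCm38, mm10).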

Additional observations from a re-analysis of the deposited data

How the results depend on the processing

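The 0 calls among the lymphocyte markers held under each alternative run: DESeq2, other scalings, no filter, the replicate block and each library left out (0 to 0 calls). The fitted sign held in all of these for Cd3d, Cd3g and Cd2. It turned for Cd4 without control replicate 1 (-0.06), for Cd79a without conditional knockout replicate 1 (-0.08), for Nkg7 without control replicate 2 (0.55) or conditional knockout replicate 2 (0.06), and for Ptprc without control replicates 1 (-0.03) or 3 (-0.07) or conditional knockout replicates 1 (-0.27) or 3 (-0.02); the cause was not tested. Without 1 library at a time the log2 fold change ranged from -0.06 to 0.59 for Cd4, from -0.08 to 0.90 for Cd79a, from -0.76 to 0.55 for Nkg7 and from -0.27 to 0.50 for Ptprc. Over all genes edgeR called 4 (Scn2b, Gm40518, Gm266 and Gm1976), DESeq2 28, the replicate block 0, and fits without 1 library 0 to 13. Among the listed genes edgeR called 0, DESeq2 2 (Cxcl9 and Avil) and fits without 1 library 0 to 1 (Avil, without conditional knockout replicate 2). Same-numbered libraries of the 2 groups did not deviate together, with weak correlations of -0.15, -0.25 and -0.13. For differently numbered libraries the correlations lay between -0.058 and 0.2. The numbers were thus not taken as pairs, and with the replicate block the log2 fold changes of Cd3d and Cd79a were 1.29 and 0.29. Cd3e and Cd8a had too few counts for the main test, and the run without the filter tested all 9 markers. There Cd8a had a log2 fold change of 0.88 ± 0.94 (SE, unadjusted edgeR p 0.37). By DESeq2 that of Cd3e was -0.50 (unadjusted DESeq2 p 0.58).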

Other observations

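Hba-a2, a globin gene with a near-identical copy in Hba-a1, was at 239.6, 205.2 and 0.291 CPM in control and 234.5, 0.538 and 1.67 CPM in the conditional knockout. Hba-a1 was at 339, 788 and 417 CPM and at 841, 208 and 669 CPM in the same libraries; how reads were shared between the copies is not known here, so both values are uncertain. The 3 libraries with Hba-a2 reads in number were not the 3 with the highest lymphocyte markers. Eif3s6-ps2, a pseudogene by its name, had 2, 129 and 10 counts in control and 296, 3 and 161 in the conditional knockout, which put the same 3 libraries high as Ptprc did. Mir6236 was at 108, 174 and 114 CPM in control and 196, 99.5 and 186 CPM in the conditional knockout, with the same 3 libraries high.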
